A study of Cucurbita pepo with 12 samples.

Results

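Leaves of zucchini grown in soil with bulk copper oxide (CuO) were compared with leaves of plants given copper sulfate, a sparingly soluble oxide against a soluble salt at the same copper dose. The comparison took 2 of the 12 libraries of the series. Its members were the 20833 of 27868 genes whose mean over the 4 leaf libraries was at least 1 FPKM, the number of fragments for each kilobase of transcript in 1000000 reads. A difference is given as log2(FPKM + 1) under bulk CuO minus that under CuSO4. With 1 library a side there is no replicate check and no p-value, and genes are described by the size of their difference.

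The plants were Cucurbita pepo, cultivar Costata Romanesco, germinated for 10 days, moved singly into pots with 500 g of soil and grown for 60 days until they flowered. The bulk CuO leaf library came from soil with 100 mg/kg of CuO raw material, that is, CuO not made as nanoparticles. The CuSO4 leaf library came from soil with 320 mg/kg of CuSO4 5H2O. Each supplied about 80 mg/kg of copper, as did the CuO nanoparticles at 100 mg/kg, and the untreated leaves had no copper added. The sulfate salt also brought sulfur into the pot and the labels list no sulfate without copper, so effects of copper form and of sulfate cannot be told apart. The design text speaks of 3 biological replicates per treatment, but each tissue and treatment has 1 column of values, and pooling is not stated in the sources used here.

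Copper is a cofactor of plastocyanin in photosynthetic electron transport, of cytochrome c oxidase in respiration and of copper/zinc superoxide dismutase. Free copper ions in excess promote reactive oxygen species, and plants limit them by controlled uptake, chaperones and binding to metallothioneins and other ligands. Copper sulfate releases its ions on dissolving, while copper oxide dissolves slowly in soil, at a rate that depends on pH and organic ligands. Comparing them at equal copper added to the soil asks how leaf transcriptomes differ between the materials, the sulfate of the salt included. Copper in the leaf itself is not among the values used here.

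None of the table's gene IDs occurs in the RefSeq gene table used here (0 of 27868 matched), so the genes carry no names or functions. IDs are printed as deposited, and no cell type or tissue marker could be checked by name. In leaf as a whole organ, fewer cells of a type and less RNA per cell cannot be told apart.

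The 2 leaf libraries had nearly the same relative depth. The spacing of low values put CuSO4 at 1.03 times the depth of bulk CuO, while read totals are not in the table and absolute depth is unknown. Under bulk CuO 20957 genes reached 1 FPKM and under CuSO4 20248, against 19690 in untreated leaves and 19676 under nanoparticles. The 10 most abundant genes held 6.98% of the FPKM sum under bulk CuO and 8.42% under CuSO4. Of the genes kept, 106 were listed at 0 under bulk CuO and 138 under CuSO4.

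Most leaf genes stood at similar levels under both copper materials. The difference lay within 1 of 0 for 89.3% of genes and within 0.5 for 65.4%. Its median was 0.10, so the typical gene was slightly higher in the bulk CuO library, and the middle 90% of genes lay between -0.88 and 1.14. At the submitters' threshold of 2.3, a 4.92-fold difference in FPKM + 1, 161 genes (0.773% of those kept) were higher under bulk CuO and 72 (0.346%) were higher under CuSO4. At a difference of 1, 1434 genes (6.88%) were higher under bulk CuO and 801 (3.84%) under CuSO4. For scale, 34.9% of leaf genes lay at or past 1 between bulk CuO and untreated leaves, 30.9% between CuSO4 and untreated leaves and 2.41% between nanoparticle and untreated leaves.

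The excess of genes higher under bulk CuO held at each scaling tried, though the split moved. As deposited, 69.1% of the genes past 2.3 were higher under bulk CuO. Over all kept genes, whatever the size of the difference, 12131 were higher under bulk CuO and 8648 under CuSO4. With the median of every leaf library set equal, which removes the 0.10, the counts were 139 and 81, or 63.2%. Quantile normalization gave 144 and 90, or 61.5%. Larger differences leaned the same way, with 62 genes at or past 3 on the bulk CuO side and 30 on the CuSO4 side. The genes nearest the threshold stood at 2.302 just inside and 2.295 just outside on the bulk CuO side, and at -2.307 and -2.292 on the CuSO4 side.

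**Figure D1:**
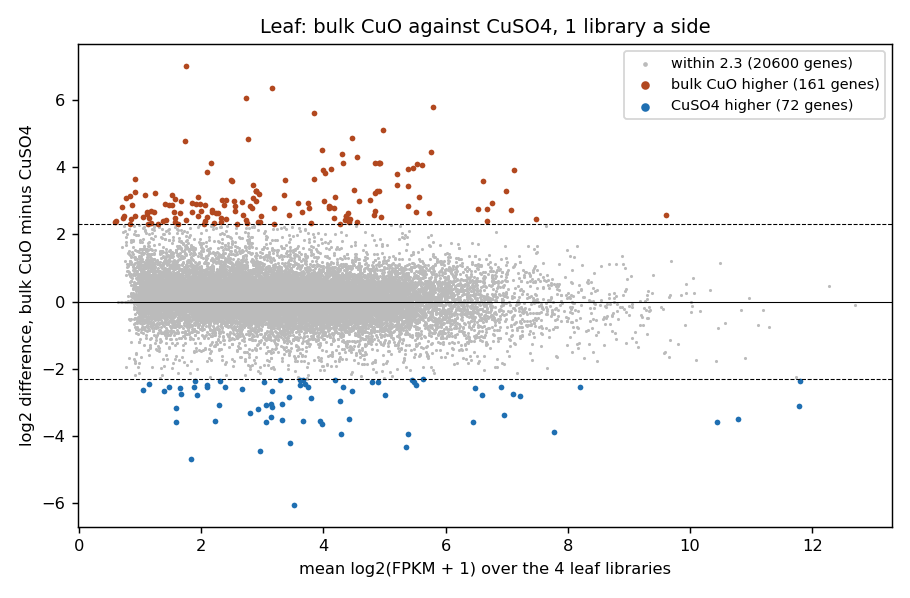
Each point is 1 of 20833 leaf genes, with its mean log2(FPKM + 1) over the 4 leaf libraries on the x axis and the log2 difference, bulk CuO minus CuSO4, on the y axis. Dashed lines mark 2.3 in each direction: 161 genes lie above and 72 below, and the most abundant of them lie below.

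The lean towards bulk CuO depended on the level of the gene. Among 5541 genes with a mean of 1 to 5 FPKM, 42 were higher under bulk CuO and 12 under CuSO4. From 5 to 20 FPKM the counts were 53 and 23 of 9400 genes, and from 20 to 100 FPKM 55 and 23 of 5131. Among the 761 genes at 100 FPKM or more the balance turned on few genes, with 11 (1.45%) higher under bulk CuO and 14 (1.84%) higher under CuSO4. Both shares were the largest of these classes, beside 0.758% and 0.217% in the lowest class, and the CuSO4 share rose more. The median difference moved towards CuSO4 too, from 0.20 in the lowest of these classes to -0.08 in the highest.

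In all 14 abundant genes that were higher under CuSO4, bulk CuO was the lowest of the 4 leaf libraries. They were chosen for bulk CuO far below CuSO4, which favours this order, so it is given as a description. CuSO4 stood above untreated leaves in some of them and below in others. Their median was 317 FPKM with CuSO4, 335 FPKM in untreated leaves, 324 FPKM with nanoparticles and 46.2 FPKM with bulk CuO. Single genes ranged from 19.7 to 7463 FPKM with CuSO4 and from 2.10 to 870.2 FPKM with bulk CuO. For 8 of the 14 every leaf library lay above every root library, beside 20.7% of all leaf genes kept. No such share was taken for abundant genes alone. In all 11 abundant genes on the bulk CuO side, CuSO4 was the lowest leaf library, which the choice of genes favours in the same way. Their median was 229 FPKM with bulk CuO, 231 FPKM in untreated leaves, 153 FPKM with nanoparticles and 23.0 FPKM with CuSO4. In 5 of the 11 every root library lay above every leaf library, beside 20.4% of all leaf genes kept.

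Exact zeros made up part of both lists. Under CuSO4, 27 of the 161 genes were listed at 0, and under bulk CuO 14 of the 72. Of the 27, 15 were above 0 in both untreated and nanoparticle leaves, and 6 were at 0 in both. Of the 14, 11 were above 0 in both and 0 were at 0 in both. A value of 0 can be a failed estimate, so no fold is given for these genes. Without them 134 genes were higher under bulk CuO and 58 under CuSO4.

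The leading genes were ranked by their difference among those above 0 in both libraries and at 5 FPKM or more in the higher one. Cp4.1LG18g03410 led on the bulk CuO side. Its leaf values were 143 FPKM untreated, 68.7 FPKM with nanoparticles, 229 FPKM with bulk CuO and 3.15 FPKM with CuSO4, a log2 difference of 5.80 between the last 2. The CuSO4 library stood far below the other 3. In root the order was another, with 645 FPKM untreated, 1274 FPKM with nanoparticles, 304 FPKM with bulk CuO and 1313 FPKM with CuSO4.

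Cp4.1LG03g16740 followed, with leaf values of 159 FPKM untreated, 36.9 FPKM with nanoparticles, 72.2 FPKM with bulk CuO and 1.15 FPKM with CuSO4, a log2 difference of 5.09. Here too CuSO4 was the low library, and untreated leaves stood above bulk CuO. Its root values were 94.4 FPKM untreated, 247 FPKM with nanoparticles, 35.8 FPKM with bulk CuO and 258 FPKM with CuSO4. The root difference of -2.81 ran opposite to that in leaf.

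On the CuSO4 side Cp4.1LG03g17740 came first. It stood at 8.90 FPKM in untreated leaves, 11.0 FPKM with nanoparticles, 0.206 FPKM with bulk CuO and 25.2 FPKM with CuSO4, a log2 difference of -4.44. Bulk CuO was the low library in leaf, whereas in pollen both bulk CuO and CuSO4 were low. The pollen values were 13.5 FPKM untreated, 21.0 FPKM with nanoparticles, 0.17 FPKM with bulk CuO and 0.235 FPKM with CuSO4.

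Cp4.1LG18g02550 had 124 FPKM in untreated leaves, 155 FPKM with nanoparticles, 1.69 FPKM with bulk CuO and 53.0 FPKM with CuSO4, a log2 difference of -4.33. Both materials lay below untreated and nanoparticle leaves, bulk CuO by far more. Its root values stayed between 4.62 and 12.8 FPKM.

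The untreated and nanoparticle leaf libraries did not enter the difference, so they show on which side each gene stood apart. For each gene the mean of their log2 values was placed on the line from CuSO4 to bulk CuO. Of the 233 genes past 2.3, 125 had this mean between the materials and 108 had both materials on the same side of it. Both lay on the same side for 82.1% of all kept genes with a difference other than 0, and for 46.4% of those past 2.3. A large gap between the materials widens the range in which the mean can fall, so these shares were given as a description.

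Where both materials lay on the same side, bulk CuO was the further one in 67 genes and CuSO4 in 41. That is 62.0% for bulk CuO, beside 57.6% over all kept genes of this kind. With 5 in place of 1 added before the log, each material was the further one in 16 genes. In 39 genes both materials lay above the untreated and nanoparticle mean and bulk CuO further. The medians of these 39 were 24.7 FPKM with bulk CuO, 2.40 FPKM with CuSO4, 0.578 FPKM untreated and 0.79 FPKM with nanoparticles. In 28 genes both lay below and bulk CuO further, with medians of 1.68 FPKM with bulk CuO, 16.5 FPKM with CuSO4 and 49.1 FPKM untreated. In 33 genes both lay below and CuSO4 further, with medians of 1.60 FPKM with CuSO4, 27.2 FPKM with bulk CuO and 99.7 FPKM untreated. The last combination, both above and CuSO4 further, held 8 genes.

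**Figure D2:**
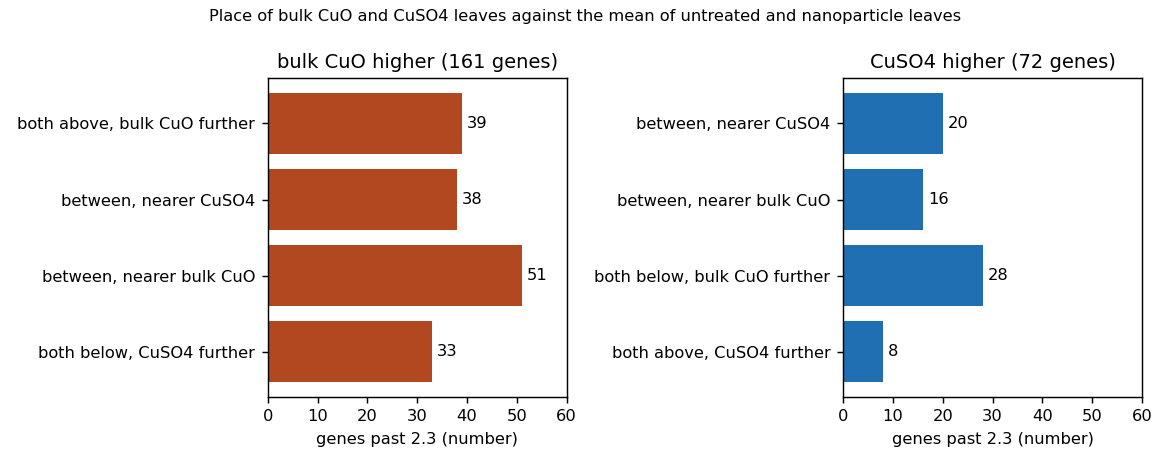
Bars count the genes past 2.3 by where bulk CuO and CuSO4 stood relative to the mean of untreated and nanoparticle leaves, on the left for the 161 genes higher under bulk CuO and on the right for the 72 higher under CuSO4. The longest bar on the left, 51 genes, holds those with the mean between the materials and nearer bulk CuO, and the longest on the right, 28 genes, those with both materials below and bulk CuO further.

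In 76 of the 20833 leaf genes kept, a single material stood apart from the other 3 leaf libraries. This required a distance of at least 2.3 from each of them, with untreated and nanoparticle leaves within 1 of the other material. Bulk CuO alone was high in 31 genes and alone was low in 6. CuSO4 alone was high in 10 genes and alone was low in 29. By this pattern the 161 genes higher under bulk CuO held 31 with bulk CuO as the odd library and 29 with CuSO4. The other genes of that list met neither pattern. Medians of the 31 were 0.167 FPKM untreated, 0.326 FPKM with nanoparticles and 0.467 FPKM with CuSO4, near the floor. Those of the 29 were 41.0 FPKM untreated, 29.9 FPKM with nanoparticles and 35.4 FPKM with bulk CuO, so the counts 31 and 29 cover unlike genes. Of the 76, 61 were above 0 under both materials. This held for 23 of the 29 low under CuSO4 alone and 4 of the 6 low under bulk CuO alone.

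Of the 31 genes high under bulk CuO alone, 24 were above 0 in both libraries, and Cp4.1LG04g03810 had the largest difference among these 24. Its values were 3.18 FPKM untreated, 2.53 FPKM with nanoparticles, 63.1 FPKM with bulk CuO and 1.22 FPKM with CuSO4, a log2 difference of 4.85. It was listed at 0 in every root and pollen library. Cp4.1LG14g06400 led the genes high under CuSO4 alone, with 3.835 FPKM untreated, 7.004 FPKM with nanoparticles, 3.47 FPKM with bulk CuO and 81.9 FPKM with CuSO4. Its leaf difference was -4.21 and its root difference 2.22, since root held 450.2 FPKM with bulk CuO and 95.8 FPKM with CuSO4. The material with the high value thus differed between the organs.

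Cp4.1LG06g07940, the first of the genes low under bulk CuO alone, was among the most abundant leaf transcripts. It stood at 1990.4 FPKM untreated, 4112 FPKM with nanoparticles, 196 FPKM with bulk CuO and 2360.5 FPKM with CuSO4, a log2 difference of -3.59, and at no more than 0.239 FPKM in root. Cp4.1LG08g13490 was low under CuSO4 alone. Its leaf values were 64.3 FPKM untreated, 24.8 FPKM with nanoparticles, 39.6 FPKM with bulk CuO and 1.31 FPKM with CuSO4, a log2 difference of 4.13. Root showed the reverse for this gene, with 8.48 FPKM with bulk CuO and 47.6 FPKM with CuSO4, a difference of -2.36.

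**Figure D3:**
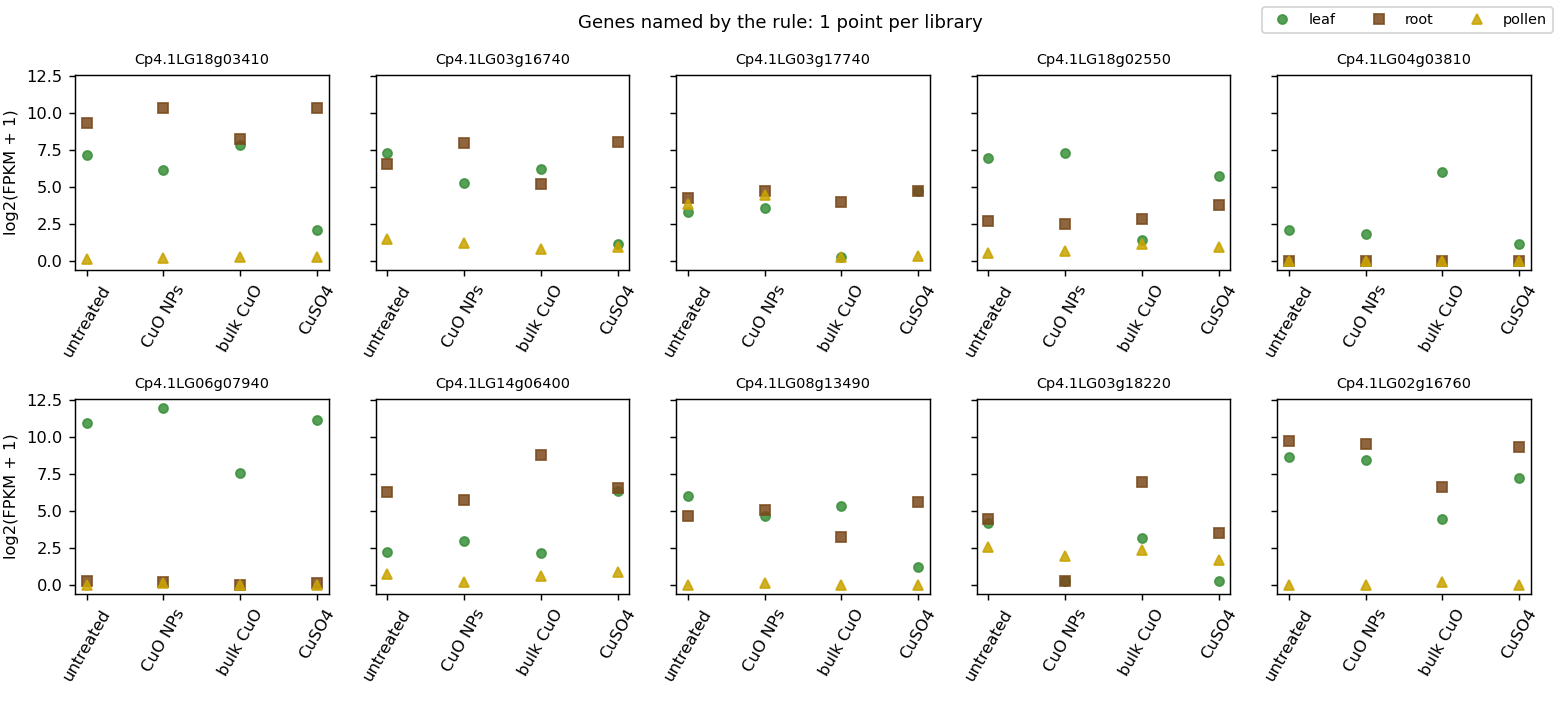
Each panel is 1 gene, with log2(FPKM + 1) on the y axis and the 4 treatments on the x axis, 1 point per library for leaf, root and pollen. In the first 2 panels the leaf point is lowest under CuSO4 while the root point is lowest under bulk CuO.

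The sizes of the bulk CuO and CuSO4 differences were set side by side with no library entering both. Nanoparticle leaves also had copper added to their soil, so a difference from them is not one from leaves without added copper. For the 951 genes at least 2.3 higher under bulk CuO than in untreated leaves, the median was 2.82, and the same genes had a median of 2.06 for CuSO4 minus nanoparticles. For the 735 genes lower by that much the medians were -2.91 and -2.20. Chosen the other way, the 511 genes higher under CuSO4 than under nanoparticles had a median of 2.74 there and of 2.86 for bulk CuO minus untreated. The 525 lower genes had medians of -2.83 and -2.72. A list chosen on a difference holds its own extremes, which raises the median of the choosing side. Genes chosen on bulk CuO had smaller medians on the CuSO4 side, while genes chosen on CuSO4 had medians of similar size on both sides. With untreated and nanoparticle leaves exchanged, genes chosen on CuSO4 had medians of 2.72 against 2.64 when higher and -2.97 against -2.19 when lower, so for lower genes this depended on the comparison library.

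Root libraries of the same contrast did not choose the leaf genes. Of the 161 genes higher under bulk CuO in leaf, 135 had a mean of at least 1 FPKM over the root libraries. In root 106 of these 135, or 78.5%, were lower under bulk CuO than under CuSO4, against 49.5% of all 19053 genes kept in both organs. The other 29 were higher, against 50.4% of all. Their median root difference was -0.82, beside 0.01 for all genes. At a difference of 1, 55 of the 135 were lower under bulk CuO in root and 5 were higher, against 5.04% and 5.94% of all genes.

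The genes higher under CuSO4 in leaf were nearly even in root by direction alone. Of 51 kept in root, 23 were lower under bulk CuO and 28 higher, with a median root difference of 0.16. At a difference of 1, 18 (35.3%) were higher under bulk CuO, opposite to leaf, and 7 (13.7%) lower, so both shares lay above those of all genes and the opposite direction held more genes. Whether the leaf and root libraries of a treatment came from the same plants is not stated in the sources used here.

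**Figure D4:**
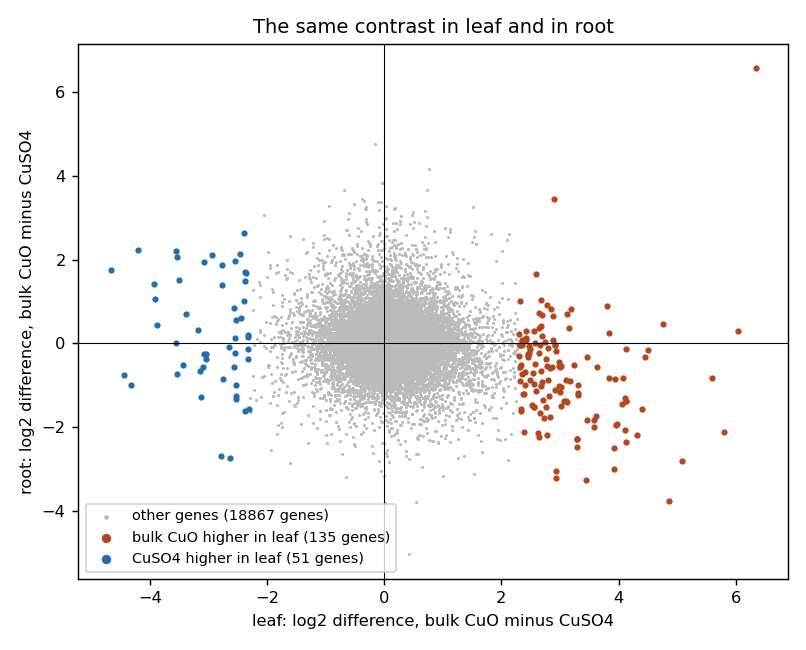
Each point is 1 of 19053 genes kept in leaf and root, with the log2 difference, bulk CuO minus CuSO4, in leaf on the x axis and in root on the y axis. Of the 135 genes past 2.3 on the right, 106 lie below the horizontal line, while the 51 on the left divide into 28 above and 23 below.

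The genes higher under bulk CuO in leaf were also more often root genes by level, a property looked at after the root values had been seen. In 52 of the 161, or 32.3%, all 4 root libraries lay above all 4 leaf libraries, against 20.4% of all leaf genes kept. In 10 of them all leaf libraries lay above all root libraries, against 20.7%. The genes were chosen for a CuSO4 leaf value far below bulk CuO, which makes this harder to meet, so these shares are not alike. Of the 72 genes higher under CuSO4, 8 (11.1%) were above in root and 19 (26.4%) above in leaf, beside the same 20.4% and 20.7%. Their choice for a CuSO4 leaf value far above bulk CuO bears on these shares as well. Of the 52 root genes, 43 (82.7%) were lower under bulk CuO in root, beside 43.6% of all genes of that class. Of the 81 kept in root whose organs overlapped, 62 (76.5%) were, beside 50.3%, so the opposite root direction was seen in both classes.

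For the 135 genes bulk CuO and CuSO4 exchanged ends between the organs by median. Their leaf medians were 29.1 FPKM with bulk CuO, 17.7 FPKM untreated, 9.54 FPKM with nanoparticles and 1.89 FPKM with CuSO4. In root the medians were 36.9 FPKM with bulk CuO, 60.3 FPKM untreated, 54.9 FPKM with nanoparticles and 63.8 FPKM with CuSO4. Taken from each gene's own mean log2 value in root, the median was -0.008 untreated and 0.093 with nanoparticles. The order of untreated and nanoparticles in root thus depended on the measure. The low library was CuSO4 in leaf and bulk CuO in root. In 66 of the 135 genes CuSO4 was the lowest leaf library and bulk CuO the lowest root library, against 11.2% of all genes kept in both organs. Since these genes were chosen for low CuSO4 values in leaf, the root values alone are given too: bulk CuO was the lowest root library in 76 genes, or 56.3%, against 38.7% of all.

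Untreated and nanoparticle leaves, which lay close to each other over all genes, also differed in these lists. Untreated leaves were above nanoparticle leaves in 103 of the 161 genes and below in 44. Over all kept genes untreated was the higher in 51.0%. Among the 72 genes higher under CuSO4, untreated was above in 26 and below in 45. The nanoparticle library thus leaned towards CuSO4 in both lists.

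**Figure D5:**
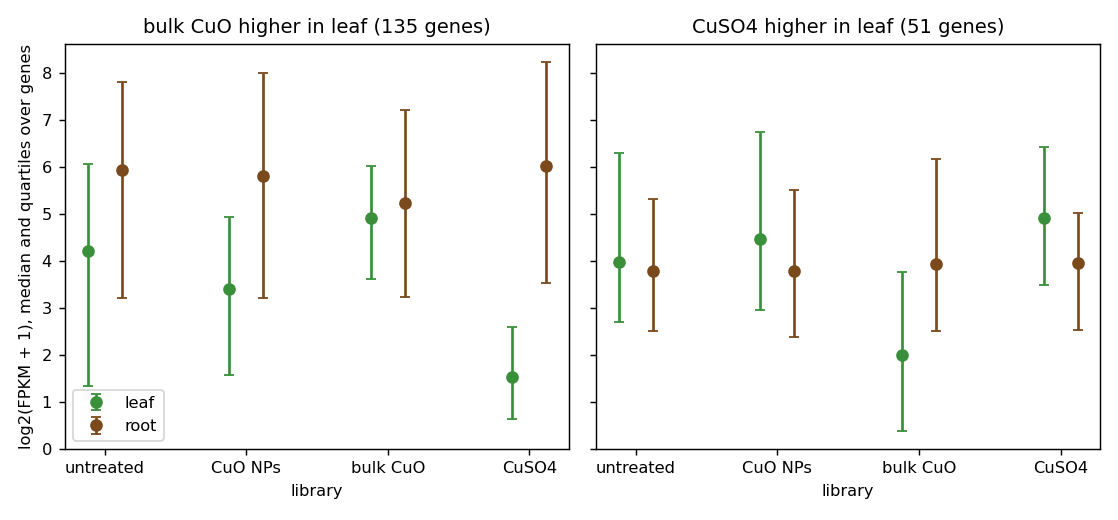
Points are medians and bars the quartiles over genes of log2(FPKM + 1) in leaf and root for each treatment, for the 135 genes higher under bulk CuO in leaf on the left and the 51 higher under CuSO4 on the right. On the left the lowest leaf median is that of CuSO4 and the lowest root median that of bulk CuO.

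At 2.3 in the same direction in both organs, the bulk CuO side had 2 of 135 genes, or 1.48%, against 0.598% of all genes kept in both. Cp4.1LG03g18220 stood at 17.7 FPKM in untreated leaves, 0.209 FPKM with nanoparticles, 7.94 FPKM with bulk CuO and 0.194 FPKM with CuSO4, a log2 difference of 2.91. With 5 added before the log it was 1.32, short of the threshold. Its root values were 20.8 FPKM untreated, 0.222 FPKM with nanoparticles, 124 FPKM with bulk CuO and 10.6 FPKM with CuSO4, a difference of 3.43. The nanoparticle library was low in both organs, and CuSO4 was low in leaf. The other gene, Cp4.1LG00g13940, was listed at 0 under CuSO4 and under nanoparticles in leaf and root.

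The CuSO4 side had 2 of 51 genes, or 3.92%, against 0.283% of all. Cp4.1LG02g16760 had leaf values of 407 FPKM untreated, 358 FPKM with nanoparticles, 20.9 FPKM with bulk CuO and 151 FPKM with CuSO4, a log2 difference of -2.79. In root it had 852 FPKM untreated, 735 FPKM with nanoparticles, 98.7 FPKM with bulk CuO and 643 FPKM with CuSO4, a difference of -2.69. Bulk CuO was the lowest library in both organs. The other gene, Cp4.1LG05g00790, was listed at 0 under bulk CuO in leaf and root and at 5.25 and 5.67 FPKM with CuSO4.

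In pollen both lists were nearly even by direction. Of the 161 genes, 51 were kept in pollen, of which 28 were lower and 23 higher under bulk CuO, against 52.3% and 47.6% of the 9775 genes kept in leaf and pollen. Of the 72 genes, 21 were kept, 10 lower and 11 higher. The median pollen differences were -0.06 and 0.04. At 2.3 in the same direction as in leaf stood 2 of the 51 genes (3.92%), against 0.0716% of all genes kept in both. They were Cp4.1LG00g13940 and Cp4.1LG11g11370, both listed at 0 under CuSO4 in pollen. On the CuSO4 side stood 1 of the 21 genes (4.76%), Cp4.1LG10g00960, against 0.215% of all. It was listed at 0 under bulk CuO in both organs and at 35.2 FPKM with CuSO4 in pollen. Untreated pollen was also listed at 0 for this gene, and nanoparticle pollen held 33.3 FPKM. These 3 and the other genes listed at 0 above were named after their values were seen, because the counts were small.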

How the data were processed

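Per the series design text, mRNA libraries were made with a TruSeq Stranded kit, read as 75 bp single ends on a NextSeq 500 and aligned with STAR to a cucurbit database transcriptome. Cutadapt and StringTie are listed too, per the submitters' processing notes, without versions. Values were deposited by the authors as FPKM per gene and library, so no count model was used.

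The scale was log2(FPKM + 1), which makes differences of low genes look smaller. Genes averaging 1 FPKM or more in the 4 libraries of a tissue were kept, and differences at or past 2.3 and 1 were counted. Relative depth came from ratios of values between 0.05 and 1.5 FPKM, which cluster at quotients of the whole numbers 1 to 4. Within leaf these closed within 0.003 on the log2 scale. Named genes are the first 2 per direction with at least 5 FPKM in the higher and above 0 in both libraries. To them come the first further gene for each pattern of a single material apart, and the first per direction also past 2.3 in root or pollen. No pollen gene met this. Gene lists for copper handling, stress, sulfate, photosynthesis and tissue markers could not be applied, because no ID matched a name. The members, lists and tests were chosen with earlier results of these data known. Alternatives were other pseudocounts, filters, scalings and thresholds. The steps were tested on simulated data. Python 3.11.15, numpy 2.4.6, pandas 2.3.3 and matplotlib 3.10.9 were used.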

Additional observations from a re-analysis of the deposited data

Results flagged for a closer look

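Leaf and root differed in opposite directions past 2.3 under the same contrast in 10 genes, and this difference between organs was not tested, since each organ has 1 library a side. Of these, 9 were higher under bulk CuO in leaf and higher under CuSO4 in root, which is 6.67% of the 135 kept in root, beside 0.283% of all genes kept in both organs. Cp4.1LG03g16740 and Cp4.1LG08g13490, described above, are among the 9. The reverse held for 1 gene, Cp4.1LG01g15910, named after its values were seen, which is 1.96% of the 51 kept in root, beside 0.598% of all. It stood at 2.39 FPKM with bulk CuO and 17.0 FPKM with CuSO4 in leaf, and at 104 FPKM and 15.9 FPKM in root.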

How the results depend on the processing

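No paired analysis was possible because each group has 1 library. The counts of genes past 2.3 depended most on the pseudocount: with 0.1 they were 367 higher under bulk CuO and 167 higher under CuSO4, and with 5 they were 52 and 27. At threshold 1 they were 1434 and 801. Genes with both materials on the same side of the untreated and nanoparticle mean numbered 161 with bulk CuO further and 120 with CuSO4 further when 0.1 was added, and 16 and 16 when 5 was added. Without genes listed at 0, 6 of 15 genes higher under CuSO4 in leaf were lower under bulk CuO in pollen. Apart from these values, all counts and medians that were recomputed stayed within 1.5 times and kept their direction, which was 56 of 67 alternatives computed. Not recomputed were the counts of a single material apart, those by level class and those of LG00 IDs. The same holds for untreated against nanoparticle leaves, opposite genes past 2.3 and the side by side medians of genes chosen on either material. Root and pollen directions were not recomputed with another pseudocount. All 10 genes named by the rule kept their direction in 40 of 40. The opposite root direction was found in 92 of 117 genes after a median shift and in 93 of 118 without genes listed at 0. Genes with root above leaf on the bulk CuO side numbered 44 of 134 without genes listed at 0 and 49 of 158 with identical genes counted once. They numbered 52 of 139 after a median shift and 50 of 144 after quantile normalization. These 4 alternatives were added after the data were seen, and the share over all leaf genes kept was not recomputed for them. Without replicate libraries no spread between plants is known, and low values carry the most counting error.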

Other observations

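Read from the root side, the opposition was smaller. Of the 84 genes at least 2.3 higher under CuSO4 in root, 54 were kept in leaf, and 36 of them (66.7%) were higher under bulk CuO there, beside 58.9% of all genes kept in both organs. Of the 172 genes higher under bulk CuO in root, 114 were kept in leaf, and 59 of them (51.8%) were higher under bulk CuO there as well.

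IDs with the LG00 prefix were more frequent on the bulk CuO side, with 20 of 902 such genes (2.22%) past 2.3, beside 0.773% of all leaf genes. Of those 20, 8 were listed at 0 under CuSO4. On the CuSO4 side 4 LG00 genes (0.443%) passed. Of the 161 genes higher under bulk CuO, 6 had values identical to another gene in all 12 libraries, and of the 72 higher under CuSO4 0 did. Some of these 6 had LG00 IDs, so copies of the same values enter the LG00 count. Reads of such genes may not be separable, which was not tested.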
